A study of Mus musculus with 12 samples.

Results

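Transcripts of 9 genes for the breakdown of aromatic amino acids, histidine and serine were followed in 12 libraries of mouse liver RNA. The genes were Tat, Hpd, Hgd, Gstz1 and Fah of tyrosine breakdown, Tdo2 and Kmo of tryptophan breakdown, Hal of histidine breakdown and Sds of serine breakdown. They were chosen by name and function as rows of both count tables, and all 9 of the 9 were found among 23420 listed genes. The choice was made with earlier results of these data known, so shares of all genes beside the 9 are descriptions. The mice were on the C57BL/6 background, and p62 is the autophagy adaptor encoded by Sqstm1, while the product of Tsc1 is part of an inhibitor of the growth kinase mTORC1. Tsc1/p62Δhep livers carried p62F/F, Tsc1F/F and the Alb-Cre transgene, in which the albumin promoter drives Cre recombinase in hepatocytes, so that both genes were deleted there. Tsc1Δhep livers carried Tsc1F/F and Alb-Cre, p62Δhep livers carried p62F/F and Alb-Cre, and p62F/F livers carried the floxed Sqstm1 alleles with no Cre. Each group had 3 libraries. Age, the diet of each sample, whether a piece was tumour, whether libraries came from separate animals and the instrument of each library are not stated in the labels. P-values therefore take the spread among libraries as given, and part of it may be technical. The deposited name of the count table with Tsc1/p62Δhep and Tsc1Δhep carries the word NORMAL after the Tsc1 knockout, which no label explains.

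Tyrosine is broken down in hepatocytes by a chain of enzymes that ends in fumarate and acetoacetate. TAT, tyrosine aminotransferase, removes the amino group. HPD, hydroxyphenylpyruvate dioxygenase, then forms homogentisate, HGD opens its ring, GSTZ1 isomerises maleylacetoacetate and FAH, fumarylacetoacetase, cleaves the last intermediate. TDO2, tryptophan dioxygenase, begins the kynurenine pathway, which leads to NAD precursors, and KMO hydroxylates kynurenine within it. HAL, histidine ammonia-lyase, forms urocanate, and SDS, serine dehydratase, turns serine into pyruvate for glucose production. Tat, Tdo2 and Sds are known as genes that respond to glucocorticoids or glucagon in rodent liver, and Hal and Sds are known for periportal expression.

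The promoters of Hpd, Hgd, Hal and Tdo2 are shown because Hpd, Hgd and Hal were among the genes that rose with loss of p62 in Tsc1-deleted liver, whereas Tdo2 was the 1 with the smallest difference there. The 250 bases before the start site are given 5′ to 3′ on the gene's strand, from RefSeq on GRCm38.p6. Capitals mark matches on either strand. The motifs marked are the TATA box, as the letters TATAAA, the pentamer CCAAT known from many promoters, and the C/EBP site, as the letters TTNNGCAA, and no 2 of the marked matches overlap; counts for these and for other letters searched follow the sequences. Hpd lies at chr5:123182724-123182973 on the minus strand, Hgd at chr16:37579903-37580152 on the plus strand, Hal at chr10:93488518-93488767 on the plus strand and Tdo2 at chr3:81975729-81975978 on the minus strand.
Hpd: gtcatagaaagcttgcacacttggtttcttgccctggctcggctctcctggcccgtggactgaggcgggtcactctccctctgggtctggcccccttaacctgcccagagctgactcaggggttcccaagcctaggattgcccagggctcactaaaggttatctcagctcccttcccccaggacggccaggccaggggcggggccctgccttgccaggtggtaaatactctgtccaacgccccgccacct
Hgd: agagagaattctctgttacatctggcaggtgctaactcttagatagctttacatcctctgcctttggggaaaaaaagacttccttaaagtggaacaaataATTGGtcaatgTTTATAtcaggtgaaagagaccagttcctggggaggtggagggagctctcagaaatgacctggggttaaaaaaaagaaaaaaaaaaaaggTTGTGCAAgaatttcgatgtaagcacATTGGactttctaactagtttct
Hal: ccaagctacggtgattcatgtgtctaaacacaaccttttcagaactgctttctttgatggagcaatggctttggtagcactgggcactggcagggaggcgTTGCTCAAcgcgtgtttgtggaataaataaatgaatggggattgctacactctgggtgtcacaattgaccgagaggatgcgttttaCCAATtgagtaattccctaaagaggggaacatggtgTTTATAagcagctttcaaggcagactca
Tdo2: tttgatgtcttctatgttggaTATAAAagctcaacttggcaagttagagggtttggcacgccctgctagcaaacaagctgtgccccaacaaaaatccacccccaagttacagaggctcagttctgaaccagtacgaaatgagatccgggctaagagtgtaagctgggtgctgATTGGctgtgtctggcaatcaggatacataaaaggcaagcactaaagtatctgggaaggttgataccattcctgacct

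Promoters were matched for 8 of the 9 genes, with Sds the exception. CCAAT was found in 5 of the 8 promoters, those of Gstz1, Hal, Hgd, Tat and Tdo2, and in 33.8% of 32851 promoters of the same length. Tat had 3 such matches, of which the nearest began 40 bases before the start site. TATAAA was found in those of Hal, Hgd and Tdo2, and in 12.4% of all promoters. The match in Hal began 28 bases before the start site, while that of Hgd began 139 and that of Tdo2 229 bases before it. TTNNGCAA was found in Hal and Hgd, and in 9.56% of all promoters. Matches to CAAAGTCCA (HNF4 site), TGTTTAC (FOXA site) and AGAACA (glucocorticoid receptor half-site) were found in 0 of the 8, against 0.384%, 3.17% and 16.1% of all promoters. A match, or the lack of one, describes these letters in these windows and nothing more. The windows of Hpd, Fah and Kmo held none of these motifs.

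Total counts were 15792048 to 33377247 per library. The deleted genes followed the labels. Sqstm1 was at 17.1 ± 2.61 CPM in Tsc1/p62Δhep and 1000.4 ± 211 CPM in Tsc1Δhep, and at 16.6 ± 3.81 CPM in p62Δhep and 339 ± 20.1 CPM in p62F/F (SD, n = 3 each). Tsc1 was at 11.6 ± 2.19 CPM in Tsc1/p62Δhep and 7.36 ± 3.1 CPM in Tsc1Δhep, and at 32.9 ± 6.83 CPM in p62Δhep and 31.7 ± 3.4 CPM in p62F/F. CPM are counts brought to a common library size, within each table of 6 libraries unless stated otherwise. The precursor of ribosomal RNA, Rn45s, held 1.21% of counts in Tsc1/p62Δhep library 1 and 0.0751% to 0.181% in the other libraries of the Tsc1-deleted groups, and 1.91% to 3.5% in the p62Δhep and p62F/F libraries.

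Whether loss of p62 changed these genes in Tsc1-deleted liver was asked by setting Tsc1/p62Δhep beside Tsc1Δhep. The tyrosine genes were higher throughout the chain, with Hpd 4.20-fold higher, and the tryptophan gene Kmo and the histidine gene Hal were higher too. Of the 9 genes, 7 rose and 0 fell at an adjusted p below 0.05, where 9.25% of 12620 genes tested rose and 14.9% fell. The median log2 fold change of the 9 was 1.29, and that of all genes tested was -0.05. By an unadjusted p below 0.05, 8 of the 9 were higher and 0 lower, where 17% of all genes tested were higher and 22.7% lower. DESeq2 also called 8 of the 9 higher and 0 lower, beside 14.1% higher and 18.8% lower among all genes. Libraries of both groups lay fully apart, with Tsc1/p62Δhep higher, for 6 of the 9 genes and for 22.3% of all genes tested, and with Tsc1/p62Δhep lower for 0 of the 9 and 23.4% of all. In bulk liver, fewer hepatocytes and less RNA per hepatocyte cannot be told apart.

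**Figure D1:**
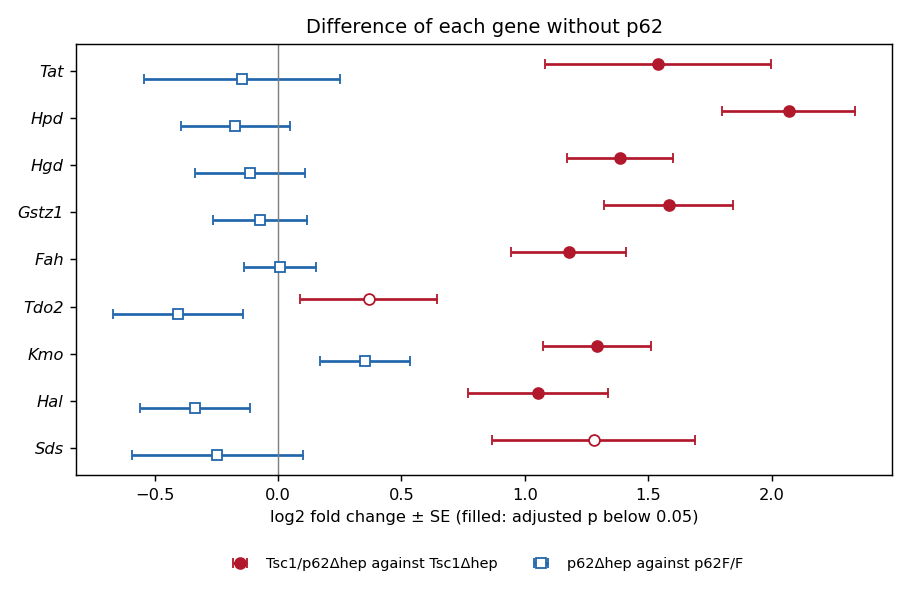
The plot gives the log2 fold change of each gene on the horizontal axis with its standard error, for Tsc1/p62Δhep against Tsc1Δhep (red circles) and p62Δhep against p62F/F (blue squares), with filled symbols for an adjusted p below 0.05. The red circles run from 0.37 for Tdo2 to 2.07 for Hpd, and the blue squares from -0.40 for Tdo2 to 0.35 for Kmo, with no filled square.

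Tat, whose product makes the first and often limiting step of tyrosine breakdown, had 3548, 1653 and 4696 CPM in Tsc1/p62Δhep libraries 1 to 3, against 870.1, 1695 and 839 CPM in Tsc1Δhep. Library 2 of Tsc1/p62Δhep lay just below the highest Tsc1Δhep library, so the groups overlapped. The log2 fold change was 1.54 ± 0.46 (SE), with an adjusted p of 0.0459. This call was lost in 5 of the 6 fits that left out 1 library, with only the fit without Tsc1/p62Δhep library 2 keeping it, and the adjusted p reached 0.13.

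Hpd had 2970.2, 2619.6 and 2522 CPM in Tsc1/p62Δhep, against 829, 566 and 538 CPM in Tsc1Δhep. Every library of Tsc1/p62Δhep lay far above every library of Tsc1Δhep, and the spread within each group was small beside the gap. Its log2 fold change was 2.07 ± 0.27, with an adjusted p of 0.00286, the largest change of the 9.

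Hgd had 866, 811 and 739.7 CPM in Tsc1/p62Δhep, against 279.9, 334 and 311 CPM in Tsc1Δhep. The groups lay apart, and its log2 fold change was 1.39 ± 0.22 with an adjusted p of 0.00528. Gstz1 had 839, 930.1 and 841 CPM in Tsc1/p62Δhep, against 331, 331 and 209 CPM in Tsc1Δhep. The groups lay apart here too, with library 3 the lowest of Tsc1Δhep, and the log2 fold change was 1.58 ± 0.26 with an adjusted p of 0.0062. Exons of Gstz1 overlap those of Pomt2 and Gm6566 on the opposite strand, and no label or header says whether counting used strand, so the Gstz1 counts are uncertain to that degree. Fah had 742, 765 and 662 CPM in Tsc1/p62Δhep, against 263, 324 and 372 CPM in Tsc1Δhep. Again no library overlapped, and the log2 fold change was 1.18 ± 0.23 with an adjusted p of 0.0113. Without Tsc1/p62Δhep library 1 or library 2 the call of Fah was lost, with an adjusted p of up to 0.0634, whereas Hpd, Hgd and Gstz1 were called in all 6 fits that left out 1 library.

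The tryptophan genes differed from each other. Tdo2 had 3305, 2553 and 4091 CPM in Tsc1/p62Δhep, against 2782, 2858 and 2067 CPM in Tsc1Δhep. The libraries of both groups were interleaved, and the log2 fold change of 0.37 ± 0.28 did not pass the test, with an adjusted p of 0.349. Kmo had 533, 493 and 503 CPM in Tsc1/p62Δhep, against 178, 204 and 242 CPM in Tsc1Δhep. The 3 libraries without p62 were within a narrow range, well above the others, and the log2 fold change was 1.29 ± 0.22 with an adjusted p of 0.00686. Kmo was called in all 6 fits that left out 1 library.

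Hal had 398, 307 and 215 CPM in Tsc1/p62Δhep, against 175, 129 and 139 CPM in Tsc1Δhep. The groups lay apart, though library 3 of Tsc1/p62Δhep was close to library 1 of Tsc1Δhep. Its log2 fold change was 1.06 ± 0.28 with an adjusted p of 0.0326, and the call was lost without Tsc1Δhep library 2, Tsc1/p62Δhep library 1 or Tsc1/p62Δhep library 2, where the adjusted p reached 0.134. Sds had 398, 145 and 276 CPM in Tsc1/p62Δhep, against 85, 157 and 94.9 CPM in Tsc1Δhep. The groups overlapped in library 2 of each, and the log2 fold change of 1.28 ± 0.41 missed the threshold with an adjusted p of 0.0578. DESeq2 called Sds, with an adjusted p of 0.012, as did the fit without Tsc1/p62Δhep library 2, with 0.0466. Exons of Sds overlap those of Gm15690 and Plbd2 on the opposite strand, which makes its counts uncertain in the same way as those of Gstz1.

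With library totals alone as the scaling, the calls of Tat and Hal were lost, with adjusted p-values of 0.0765 and 0.0914. That scaling moved the median log2 fold change of all genes tested to -0.40, and only 14.7% of calls were then higher, against 38.2% with TMM scaling. All 9 log2 fold changes stayed above 0 under it, the lowest being 0.03 for Tdo2. Without Tsc1/p62Δhep library 1, which stands apart by its share of Rn45s, 4 of the 9 genes were called. Genes called higher among all tested then numbered 351, against 1167 with all libraries. Without Tsc1/p62Δhep library 2, whose share of Rn45s was 0.0872%, they numbered 384, and 6 of the 9 were called.

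Ratios of counts within a library do not depend on that scaling, and were taken to Tdo2, the gene with the smallest difference. Counts of Hpd per count of Tdo2 were 0.899, 1.03 and 0.616 in Tsc1/p62Δhep, against 0.298, 0.198 and 0.26 in Tsc1Δhep. Each library without p62 held more Hpd per Tdo2 than any with it. Kmo, the later enzyme of the same tryptophan pathway, had 0.161, 0.193 and 0.123 counts per count of Tdo2 in Tsc1/p62Δhep, against 0.0641, 0.0712 and 0.117 in Tsc1Δhep, and these groups lay apart by little. Of 8 genes set against Tdo2, 6 had groups fully apart and higher in Tsc1/p62Δhep, against 5.49% of all genes tested, with Fah and Hal the exceptions. Tdo2 was taken as the divisor for its small difference in this same comparison, so the count follows in part from that choice and is given as a description only. An exact permutation test of 3 against 3 libraries cannot give a p below 0.1.

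**Figure D2:**
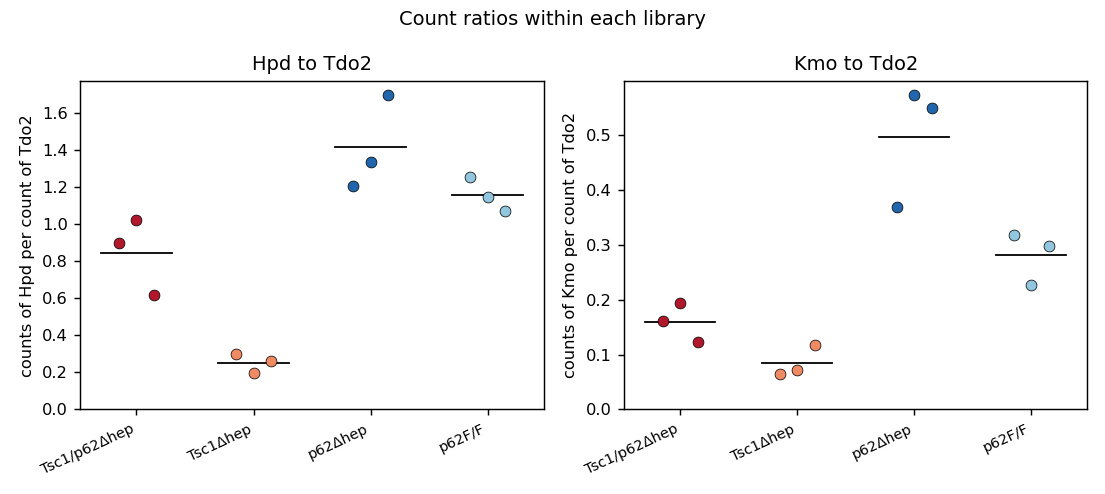
The panels plot counts of Hpd (left) and Kmo (right) per count of Tdo2 in each library on linear axes, with a line at each group's mean. The Hpd ratio was 0.616 to 1.03 in Tsc1/p62Δhep and 0.198 to 0.298 in Tsc1Δhep, below the 1.07 to 1.7 of p62Δhep and p62F/F together.

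The hepatocyte markers moved with these genes. The summed level of 9 hepatocyte markers was 104741 to 130319 CPM in Tsc1/p62Δhep and 42198 to 82608 CPM in Tsc1Δhep. Of these markers 3 rose and 0 fell, beside 9.25% and 14.9% of all genes tested, and their median log2 fold change was 1.05. Alb, the gene of serum albumin, made the largest part of the sum, with 56581 ± 14507 CPM in Tsc1/p62Δhep and 24486 ± 15238 CPM in Tsc1Δhep, and did not pass the test (adjusted p 0.0907).

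Set against that sum, 0 of the 9 genes had groups fully apart and higher in Tsc1/p62Δhep, against 1.98% of all genes tested. Hpd came to 28.4, 24.8 and 19.4 counts per 1000 marker counts in Tsc1/p62Δhep, against 19.6, 6.85 and 11.2 in Tsc1Δhep. Only library 3 without p62 fell within the range of the other group, just below its highest library. Hgd came to 8.27, 7.68 and 5.68 counts per 1000 in Tsc1/p62Δhep, against 6.63, 4.05 and 6.45 in Tsc1Δhep, which overlapped more. On this scale the means in Tsc1/p62Δhep, relative to those in Tsc1Δhep, were 1.93 times for Hpd, 1.46 times for Tat, 1.44 times for Gstz1, 1.26 times for Hgd, 1.24 times for Sds, 1.16 times for Kmo, 1.09 times for Fah, 0.973 times for Hal and 0.608 times for Tdo2. Hpd was first and Tdo2 last, as by log2 fold change. All 9 genes share 1 divisor in each library, so this order is not a separate result. Tdo2 came to 31.6, 24.2 and 31.4 counts per 1000 in Tsc1/p62Δhep, against 65.9, 34.6 and 42.9 in Tsc1Δhep, and was the 1 gene of the 9 with groups fully apart and lower, against 57.5% of all genes tested.

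**Figure D3:**
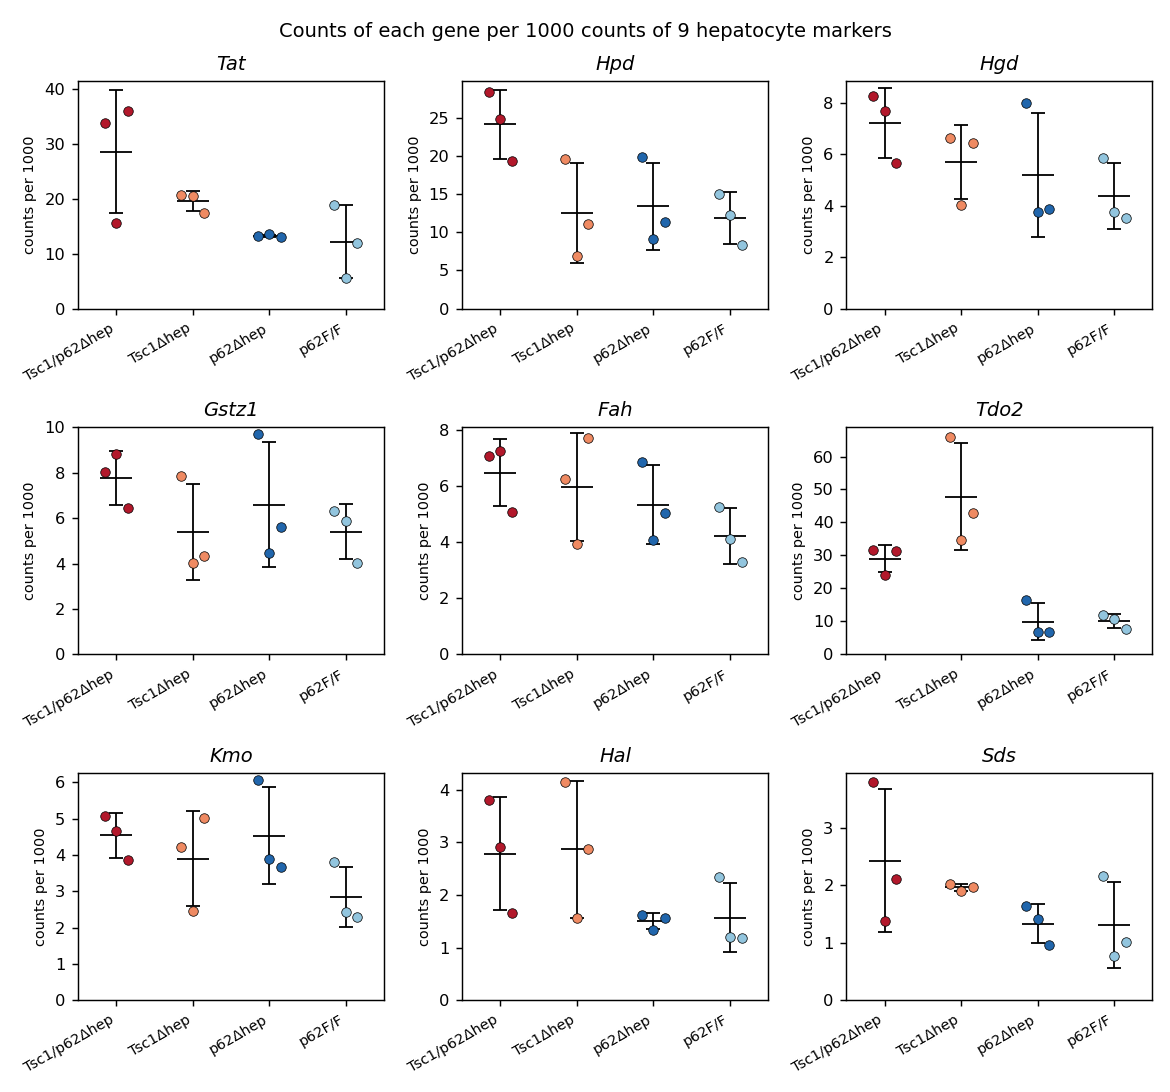
Each panel plots 1 gene's counts per 1000 counts of the 9 hepatocyte markers in every library, with group means ± SD, on axes that start at 0. Tsc1/p62Δhep and Tsc1Δhep overlap in all panels but that of Tdo2, where Tsc1/p62Δhep averages 29 and Tsc1Δhep 47.8.

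Markers of other cells were read in the same comparison, where 9.25% of all genes tested rose and 14.9% fell. The sum of 6 cholangiocyte markers was 83.8 to 132 CPM in Tsc1/p62Δhep and 754 to 5240.1 CPM in Tsc1Δhep, and 2 of 5 tested fell. Of 6 stellate cell markers 3 fell, with sums of 76.6 to 107 CPM in Tsc1/p62Δhep and 38.5 to 190.2 CPM in Tsc1Δhep. Of 6 macrophage markers 3 fell, with 78.1 to 94.1 CPM in Tsc1/p62Δhep and 66.5 to 195 CPM in Tsc1Δhep. Of 6 endothelial markers 1 fell, with 109.6 to 144 CPM in Tsc1/p62Δhep and 34.8 to 171 CPM in Tsc1Δhep. Each of the stellate, macrophage and endothelial lists was split, with 3 of 6 log2 fold changes above 0. The highest were 2.13, 2.68 and 1.19 in turn. Of these lists edgeR called 0 markers higher, and DESeq2 called 1 macrophage marker higher. Neutrophil markers summed to 0.283 to 0.779 CPM in Tsc1/p62Δhep and 1.64 to 10.7 CPM in Tsc1Δhep, and both that could be tested fell, with adjusted p-values of 0.0364 and 0.0427. Markers of T and NK cells summed to 0.59 to 1.2 CPM in Tsc1/p62Δhep and 0.939 to 3.77 CPM in Tsc1Δhep. The sum of 3 B and plasma cell markers was 8.05 to 19.5 CPM in Tsc1/p62Δhep and 3.99 to 9.34 CPM in Tsc1Δhep. The 1 that could be tested was not called by edgeR, whereas DESeq2 called it higher, as it did 14.1% of all genes. Of the 4 kidney tubule markers, Lrp2 was the 1 that could be tested and rose, by 2.51 on the log2 scale, a call that 4 of the 6 fits without 1 library lost. The pancreas markers Cpa1, Pnlip and Prss1 and the kidney markers Slc34a1 and Slc12a1 had no count in both groups. Both Lrp2 and Gldc, given further on, were named after their values were seen. The part of these cell markers in the changes of the 9 genes was not tested.

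Whether loss of p62 changed the same genes with Tsc1 intact was asked by setting p62Δhep beside p62F/F. Of the 4 groups p62F/F alone lacks Cre, so p62 loss and Cre itself cannot be told apart here. With edgeR 0 of the 9 genes were called, where 0% of 12567 genes tested were called higher and 0.0159% lower. DESeq2 also called 0 of the 9, beside 0.263% higher and 1.1% lower among all genes. At an unadjusted p below 0.05 there were 0 of the 9 too, beside 3.16% higher and 4.96% lower. No gene of the 9 had groups fully apart, against 6.17% of all genes tested higher and 6.65% lower.

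Hpd had 1378, 982 and 1016 CPM in p62Δhep, against 1430.1, 1329 and 1047 CPM in p62F/F, and Tat 912, 1463 and 1163 CPM in p62Δhep, against 1797, 607 and 1513 CPM in p62F/F. In both genes the groups overlapped, and for Tat the lowest and the highest library were both p62F/F. Tdo2 had 1139.9, 733 and 598 CPM in p62Δhep, against 1137, 1157 and 976 CPM in p62F/F, with library 1 of p62Δhep at the p62F/F level and the others below it. Its log2 fold change was -0.40 ± 0.26, with an adjusted p of 0.737. Kmo had 421, 420.0 and 328 CPM in p62Δhep, against 362, 262 and 291 CPM in p62F/F, with a log2 fold change of 0.35 ± 0.18 and an adjusted p of 0.669. Those were the largest differences in each direction. Hgd had 555, 408 and 345 CPM in p62Δhep, against 559, 408 and 447 CPM in p62F/F, and Gstz1 673, 483 and 502 CPM, against 601, 634 and 511 CPM in p62F/F. Fah differed least, with 475, 442 and 452 CPM in p62Δhep, against 501, 445 and 416 CPM in p62F/F. Hal had 113, 145 and 139.8 CPM in p62Δhep, against 222, 129.7 and 149 CPM in p62F/F, and Sds 114, 153 and 85.7 CPM in p62Δhep, against 207, 82.4 and 128 CPM in p62F/F. For both, library 1 of p62F/F was the highest of the 6.

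The summed hepatocyte markers were 69376 to 108233 CPM in p62Δhep and 95286 to 126508 CPM in p62F/F, with 0 of 9 called. None of the lists of other cell types held a called gene in this comparison. The 6 macrophage markers had sums of 322 to 604 CPM in p62Δhep and 319.6 to 371 CPM in p62F/F. Set against the hepatocyte sum, 0 of the 9 genes were fully apart and higher in p62Δhep, against 15.2% of all genes tested, and 0 of the 9 fully apart and lower, against 1.42%. Set against Tdo2, Gstz1 and Kmo were fully apart and higher in p62Δhep, that is 2 of 8 genes against 11.8% of all genes tested. Of the 9 genes Tdo2 had the lowest log2 fold change in this comparison and Kmo the highest. The count thus follows in part from the divisor and is given as a description only. Kmo had 0.369, 0.573 and 0.549 counts per count of Tdo2 in p62Δhep, against 0.318, 0.227 and 0.299 in p62F/F.

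Whether the effect of p62 loss differed between Tsc1-deleted and Tsc1-intact liver was tested as an interaction over all 12 libraries. The difference was higher in Tsc1-deleted liver and passed the test for 6 of the 9 genes, against 6.76% of 13231 genes tested, and 0 of the 9 were lower, against 9.32%. DESeq2 called 8 of the 9 higher, where 10.1% of all genes were higher and 12.7% lower, and by an unadjusted p below 0.05 there were 8 as well, against 14.8% higher and 18.8% lower. For Hpd the difference of the log2 fold changes was 2.24 ± 0.35, with an adjusted p of 0.00271. It was 1.65 ± 0.32 for Gstz1, 1.49 ± 0.31 for Hgd and 1.16 ± 0.26 for Fah, with adjusted p-values of 0.00729, 0.00938 and 0.0137. These 4 tyrosine genes kept the call in all 12 fits that left out 1 library. Hal, with 1.39 ± 0.37 and an adjusted p of 0.0276, kept it in 5 of 12, and Kmo, with 0.93 ± 0.28 and an adjusted p of 0.0423, in 1 of 12. With library totals as the scaling the calls of Fah and Kmo were lost, with differences of 0.82 and 0.58 and adjusted p-values of 0.0695 and 0.18. The call of Kmo was also lost with no filter on low counts (adjusted p 0.06) and with the replicate block (0.0787), and that of Hal without both Tsc1Δhep library 3 and Tsc1/p62Δhep library 1 (0.0506). Tat, Sds and Tdo2 did not pass, with differences of 1.68 ± 0.66, 1.52 ± 0.59 and 0.77 ± 0.40 and adjusted p-values of 0.102, 0.0962 and 0.202. An effect of Cre would not cancel in this contrast, since of the 4 groups only p62F/F lacked it.

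The levels of the 9 genes were then set in order over the 4 groups, as CPM of library totals, with no test, because the tables may have been processed separately. Rn45s, given above, differed between the tables, and its part in these levels was not tested. Tsc1/p62Δhep was the highest group by its mean for all 9 genes, as for 15.9% of 13231 genes, and with TMM scaling over all 12 libraries also for all 9, as for 25.8% of genes. Hpd averaged 2398 ± 244 CPM in Tsc1/p62Δhep, 720.3 ± 139 CPM in Tsc1Δhep, 1131 ± 314 CPM in p62Δhep and 1275 ± 185 CPM in p62F/F (SD, n = 3 each). By rising mean the order was Tsc1Δhep, p62Δhep, p62F/F and Tsc1/p62Δhep. The middle groups, p62Δhep and p62F/F, overlapped, and the outer ones stood apart from their neighbours. Hgd, Gstz1 and Fah had the same order. In Gstz1 the outer groups also stood apart from their neighbours, while in Hgd and Fah the Tsc1Δhep libraries overlapped those of p62Δhep.

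Relative to p62F/F, the mean in Tsc1Δhep was 0.565 times for Hpd, 0.552 times for Gstz1 and 0.739 times for Hgd. Every Tsc1Δhep library lay below every p62F/F library for these 3 genes of the 9, as for 14.3% of 13231 genes. With TMM scaling over all 12 libraries the count was 5 of 9, against 23.3% of genes. Every Tsc1/p62Δhep library lay above every p62F/F library for 6 of the 9, as for 17.1% of genes, those being Hpd, Hgd, Gstz1, Fah, Tdo2 and Kmo. These 2 sets of ratios share the p62F/F libraries.

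Tdo2 followed another order. Its libraries had 2963, 2292 and 3539 CPM in Tsc1/p62Δhep, 2953, 3161 and 2518 CPM in Tsc1Δhep, 1234, 685 and 578 CPM in p62Δhep, and 1053, 1245 and 998 CPM in p62F/F. Both groups with deleted Tsc1 lay above both groups with intact Tsc1, with means 2.67 times that of p62F/F in Tsc1/p62Δhep and 2.62 times in Tsc1Δhep. It was the 1 gene of the 9 with every Tsc1Δhep library above every p62F/F library, as for 32.5% of genes. Since the Tsc1 state and the table changed together, they cannot be told apart in these levels. Neighbouring groups of Tat and of Sds overlapped throughout, so that no step between neighbours exceeded the spread. Kmo neighbours overlapped too, while for Hal the p62Δhep libraries lay below those of Tsc1Δhep, its other neighbours overlapping.

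**Figure D4:**
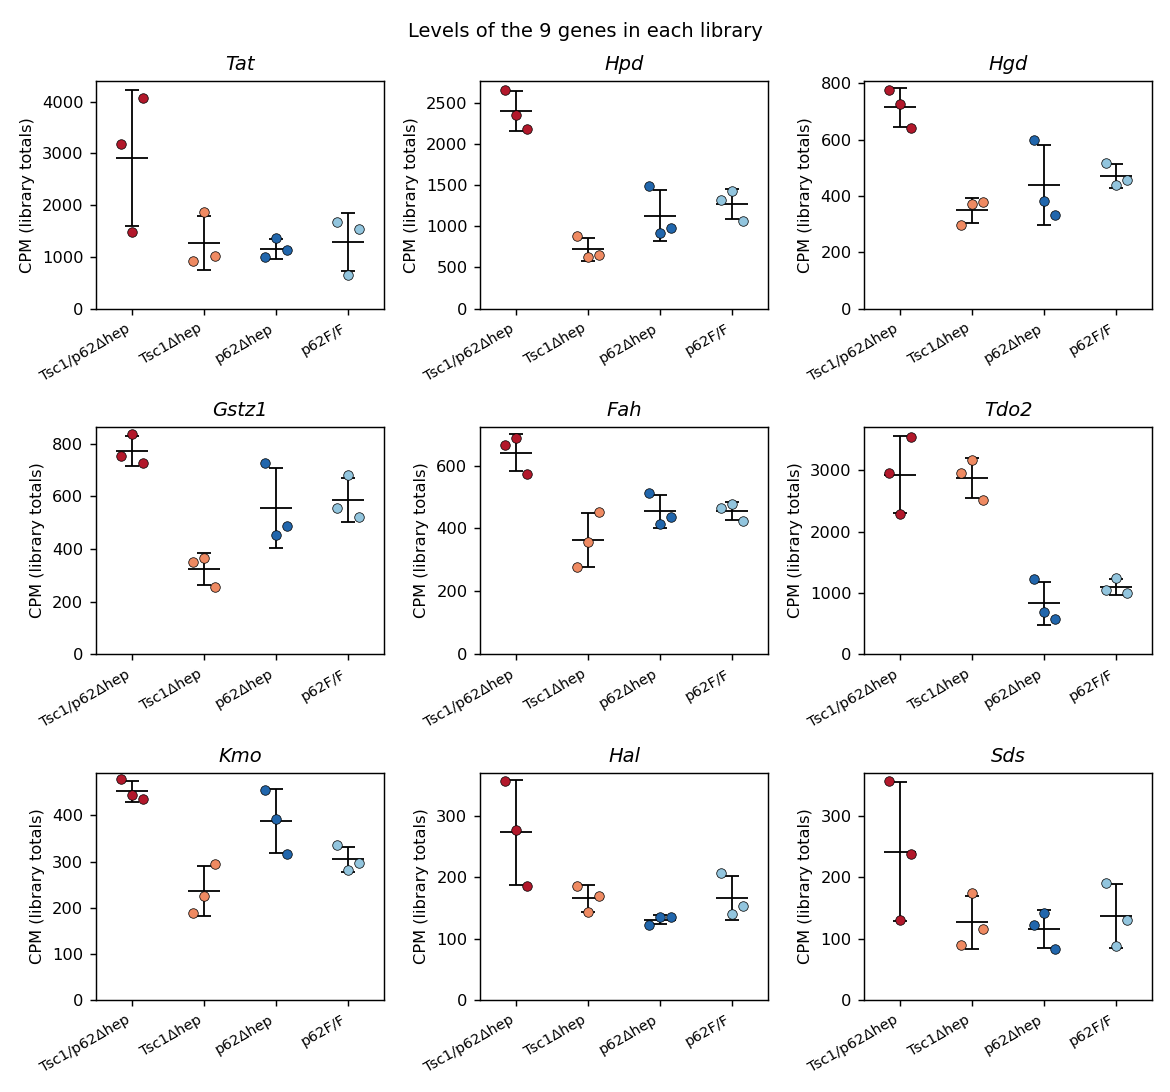
Each panel plots the CPM of 1 gene, scaled by library totals, in every library of the 4 groups, with group means ± SD, on axes that start at 0. Hpd is highest in Tsc1/p62Δhep at a mean of 2398 CPM and lowest in Tsc1Δhep at 720.3 CPM, while Tdo2 is at 2931 CPM in Tsc1/p62Δhep and 2877 CPM in Tsc1Δhep and at or below 1098 CPM in the groups with intact Tsc1.

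Between genes, levels were compared as CPM per kilobase of exon. Tat, Hpd and Tdo2 held the first 3 ranks in all 4 groups, and Hal had the lowest rank in all 4. Tat had 1209 CPM per kilobase in Tsc1/p62Δhep, 529 in Tsc1Δhep, 482 in p62Δhep and 536 in p62F/F, and Tdo2 755, 741, 214 and 283 in the same groups. By group means, Tdo2 was the first in rank in Tsc1Δhep, Tat in Tsc1/p62Δhep and Hpd in the groups with intact Tsc1. In Tsc1/p62Δhep Hpd came next to Tat, with 1127 CPM per kilobase. Tat itself ranged from 1484 to 4062 CPM of library totals in that group, so the order of these 2 genes is uncertain there. Hal had 49.2 CPM per kilobase in Tsc1/p62Δhep and 29.9 in Tsc1Δhep.

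Across the 12 libraries, the genes of one chain varied together to unequal degrees, as a description with groups and tables as shared sources of variation. Pearson's r of log2(CPM + 1) was 0.92 for Hpd with Gstz1, 0.91 for Hgd with Fah and 0.90 for Hpd with Hgd. Tat, of the same chain, had an r of 0.47 with Hpd and 0.32 with Gstz1, and 0.89 with Sds. The ratio of Tat to Hpd counts overlapped between the groups of both comparisons, being 1.19, 0.631 and 1.86 in Tsc1/p62Δhep and 1.05, 2.99 and 1.56 in Tsc1Δhep. Counts of Sds per count of Tat were 0.0588 to 0.112 in Tsc1/p62Δhep and 0.0929 to 0.113 in Tsc1Δhep, and these ranges overlapped. Tdo2 had the lowest r with the mean profile of the 9, 0.41, and Hgd the highest, 0.95.

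Among genes outside the set with a mean of at least 5 CPM, 9695 in all, those most like the mean profile were Slc27a5 with an r of 0.96, Etnk2 with 0.95 and Gls2 with 0.93. Slc27a5 encodes a bile acid-CoA ligase, and Gls2 is the glutaminase of liver. Ccrn4l, Agpat6, Txnrd3 and Aldh8a1 followed, with r of 0.91 to 0.92. The most like gene of each was Pfkfb3 for Tat and for Sds (0.88 and 0.86), Ppm1a for Hpd (0.98), Txnrd3 for Hgd (0.95), Bphl for Gstz1 (0.96), Slc38a3 for Fah (0.97), Ei24 for Tdo2 (0.98), Nudt7 for Kmo (0.95) and Asl for Hal (0.87). Tat and Sds thus shared 1 such gene.

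Other genes of the same pathways were read from lists, none of them holding any of the 9. In Tsc1/p62Δhep against Tsc1Δhep, 29 of 74 tested genes of 6 amino acid lists rose and 2 fell, with a median log2 fold change of 0.60, beside 9.25% higher and 14.9% lower among all genes. In p62Δhep against p62F/F 0 of the 74 were called by edgeR or DESeq2. There 8 had an unadjusted p below 0.05, beside 3.16% higher and 4.96% lower among all genes. For the difference between backgrounds, 23 of the 74 were higher and 1 lower, beside 6.76% higher and 9.32% lower among all genes.

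Of 11 tested phenylalanine and tyrosine genes outside the 9, 2 rose and 0 fell. Got1, the cytosolic aspartate aminotransferase, had 412 ± 179 CPM in Tsc1/p62Δhep and 139 ± 28.3 CPM in Tsc1Δhep, and rose by 1.57 ± 0.35 on the log2 scale (adjusted p 0.0182). The genes of the steps that follow Hal rose as well. Uroc1, the urocanate hydratase, rose by 1.76 ± 0.27, Amdhd1, the imidazolonepropionase, by 1.55 ± 0.34, and Ftcd, which passes the remaining formimino group to folate, by 1.47 ± 0.26. With the folate enzyme gene Aldh1l1 (1.74 ± 0.37) these were 4 of 6 tested, with adjusted p-values of 0.00511 to 0.0168.

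Of 16 tested tryptophan and NAD genes, 6 rose and 1 fell. Afmid, the kynurenine formamidase that follows Tdo2, rose by 1.62 ± 0.36, Aldh8a1, an aldehyde dehydrogenase of the kynurenine pathway, by 1.14 ± 0.20 and Gcdh, glutaryl-CoA dehydrogenase, by 1.04 ± 0.22. Maoa, monoamine oxidase A, fell to 20.6 ± 6.65 CPM in Tsc1/p62Δhep, against 303 ± 328 CPM in Tsc1Δhep, where the libraries differed widely. Of 15 tested serine, threonine and glycine genes 5 rose and 1 fell. Agxt, the peroxisomal alanine-glyoxylate aminotransferase, rose by 2.55 ± 0.47, Gnmt, glycine N-methyltransferase, by 2.49 ± 0.56, Dmgdh, dimethylglycine dehydrogenase, by 2.30 ± 0.40 and Shmt1, the cytosolic serine hydroxymethyltransferase, by 0.97 ± 0.21. Gldc, of the glycine cleavage system, fell by 1.27 on the log2 scale (SE 0.30, adjusted p 0.0224).

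Outside these pathways, 5 of 13 branched-chain amino acid genes rose, among them Mccc2 (log2 fold change 1.41), Hibadh (1.29), Pccb (1.07) and Ivd (0.93). Of 13 genes of other amino acids 7 rose. Oat, ornithine aminotransferase, stood at 928 ± 570 CPM in Tsc1/p62Δhep and 27.3 ± 24.5 CPM in Tsc1Δhep, the largest change in these lists, with a log2 fold change of 5.09 ± 0.95. Cbs, cystathionine beta-synthase, rose by 2.14, Prodh, proline dehydrogenase, by 1.89 and Gls2 by 1.63 on the log2 scale. Oat is also in the list of pericentral markers, and Gls2 in that of periportal markers, both given further on. Of the 74, those that rose numbered 12 without Tsc1/p62Δhep library 1 or library 2, 14 without Tsc1Δhep library 2, and 22 to 33 without the other libraries in turn. Among the genes named here, Aldh8a1, Uroc1, Ftcd, Dmgdh, Agxt, Mccc2, Hibadh, Prodh, Cbs and Gls2 were called in all 6 such fits. The calls of Got1, Gcdh, Aldh1l1, Shmt1 and Gnmt were lost without Tsc1Δhep library 2, Tsc1/p62Δhep library 1 or Tsc1/p62Δhep library 2. Those of Afmid, Amdhd1, Maoa and Gldc were lost without Tsc1/p62Δhep library 1 or library 2 and that of Oat without Tsc1Δhep library 2, where its adjusted p was 0.0506. Pccb and Ivd kept the call in 2 of the 6.

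**Figure D5:**
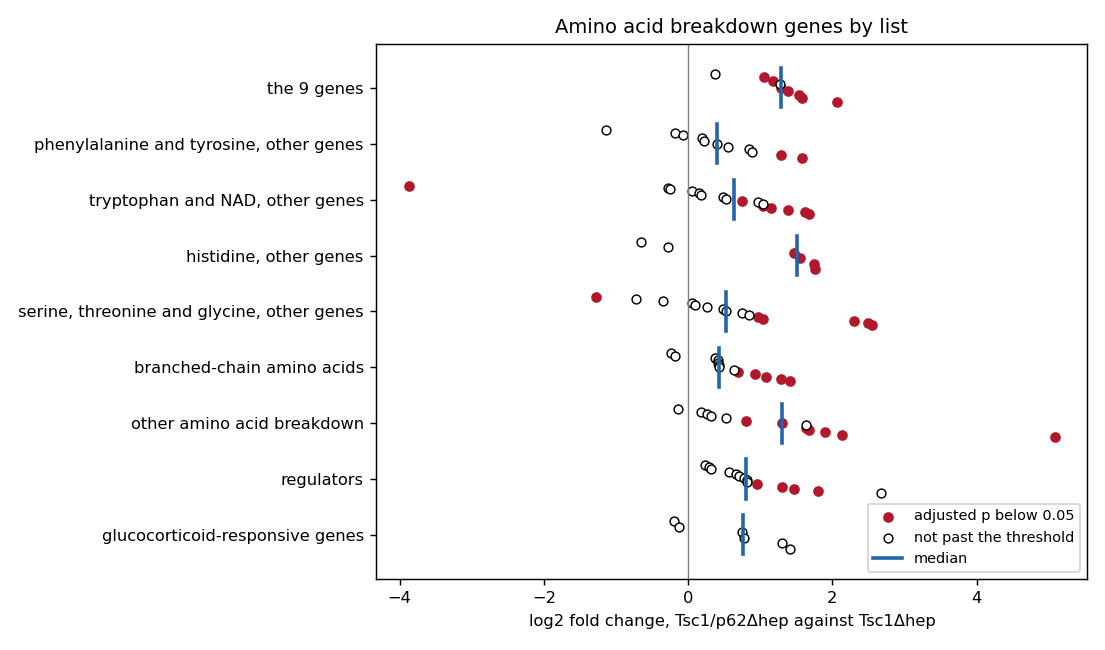
Each point is 1 tested gene, placed by its log2 fold change in Tsc1/p62Δhep against Tsc1Δhep, in rows by list, with filled points for an adjusted p below 0.05 and a bar at each list's median. The median is 1.29 for the 9 genes, 1.51 for the other histidine genes and 0.40 for the other phenylalanine and tyrosine genes.

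Of 14 regulators of these pathways or of hepatocyte transcription, 4 rose in Tsc1/p62Δhep against Tsc1Δhep and 0 fell. Among all genes tested 9.25% rose and 14.9% fell. Foxo1, a transcription factor of the fasted state, rose by 1.79 ± 0.33, Cebpb by 1.46 ± 0.33 and Klf15, a factor known to act on amino acid breakdown, by 1.30 ± 0.27. Of 6 glucocorticoid-responsive genes 0 were called by edgeR, 1 had an unadjusted p below 0.05 and 1 was called by DESeq2. Of their log2 fold changes 4 of the 6 were above 0, with a median of 0.76, a lowest value of -0.20 and a highest of 1.41.

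Hal and Sds are members of the list of 10 periportal markers as well, of which 7 rose and 2 fell. The shares of all genes tested were 9.25% and 14.9%. Cps1, the first enzyme of the urea cycle, rose by 2.12 ± 0.35 and Cyp2f2 by 1.82 ± 0.26, whereas Cdh1 fell by 1.28 and Hsd17b13, also named after its value was seen, by 2.00 on the log2 scale. Of 9 pericentral markers 5 rose and 0 fell, with Glul, glutamine synthetase, higher by 2.46 ± 0.45 and Cyp1a2 by 5.22 on the log2 scale. All 9 pericentral markers had log2 fold changes above 0, from 2.31 to 5.22, with a median of 3.25. Of the 10 periportal markers 8 were above 0, with a median of 1.45, beside -0.05 for all genes tested. Markers of both zones thus included genes that rose, though not to the same degree. Foxo1, Cps1, Cyp2f2, Glul and Cyp1a2 kept their calls without each library in turn, whereas Klf15 lost it without Tsc1/p62Δhep library 1, Cebpb without Tsc1/p62Δhep library 1 or library 3, and Cdh1 without Tsc1/p62Δhep library 1 or library 2. Hsd17b13 lost it without Tsc1Δhep library 2, Tsc1/p62Δhep library 1 or Tsc1/p62Δhep library 2. In p62Δhep against p62F/F, edgeR called 0 genes of either zone or of the regulators, 2 of these had an unadjusted p below 0.05, and DESeq2 called 1 pericentral marker.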

How the data were processed

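Per the labels' protocols, frozen mouse liver pieces gave Trizol RNA, and directional poly(A) libraries were sequenced single-end or paired-end. The authors deposited 2 tables of gene counts with 6 libraries each, whole numbers with no normalization. Aligner, counter, annotation and strand setting were not given in the sources used here. Gene symbols were those of mouse, although hg19 is the build in the submitters' processing notes.

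Groups and replicate numbers came from the titles. No pair of replicates agreed within sampling noise, with chi-square statistics of 36.2 to 325 per gene over genes with at least 20 counts, so none was counted as 1 sample. Genes were kept with filterByExpr (at least 10 counts in enough libraries and 15 in total), scaled by TMM and tested with edgeR 4.0.16 (quasi-likelihood, Benjamini-Hochberg adjustment, threshold 0.05) in R 4.3.3. Each comparison was fitted within its table, and the interaction over all 12 libraries. Standard errors were derived from the F statistics. Alternatives were DESeq2 1.42.0, limma 3.58.1 on log2(CPM + 1), other scalings, no filter, a replicate block, 1 fit of all libraries and libraries left out. An added alternative, chosen after seeing the data, took out, per library, the trend along GC content and length, for which 99.3% of genes had values. The fits were checked on simulated data. The totals of 15792048 to 33377247 counts make counting error small for these genes, and the spread between libraries sets the precision.

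The 9 genes, the lists and the tests were chosen with earlier results of these data known. The genes named by rule were the 9, Sqstm1, Tsc1, of each pathway list the up to 4 genes with the smallest p among those called in Tsc1/p62Δhep against Tsc1Δhep, and the most like genes by Pearson's r. A few genes that this rule takes, and 1 motif searched, are not reported here. The lists cover the amino acid pathways, regulators, glucocorticoid-responsive genes, zonation and cell types given in the text. Of 23420 symbols, 21571 matched a mouse RefSeq symbol, 1686 an older one, and 27 had been turned into dates. Exon lengths and overlaps came from the GENCODE mouse annotation, and promoter sequences from RefSeq.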

Additional observations from a re-analysis of the deposited data

Results flagged for a closer look

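For 6 of the 9 genes, the effect of p62 loss differed between Tsc1-deleted and Tsc1-intact liver, with edgeR's adjusted p below 0.05. This was the interaction test over 12 libraries, where 6.76% of 13231 genes tested were higher and 9.32% lower. The difference of the log2 fold changes was 2.24 for Hpd, 1.49 for Hgd, 1.65 for Gstz1, 1.16 for Fah, 0.93 for Kmo and 1.39 for Hal, each being higher in Tsc1-deleted liver. With library totals as the scaling, the calls of Fah and Kmo were lost. Of the 12 fits that left out 1 library, Hal kept the call in 5 and Kmo in 1, the other genes in all. In Tsc1-deleted liver every Tsc1/p62Δhep library lay above every Tsc1Δhep library for these 6, as for 22.3% of all genes tested. The p62Δhep and p62F/F libraries overlapped for them, where 6.17% of all genes tested lay fully apart and higher and 6.65% lower. These 6 genes were picked by a test on the same libraries, so both statements are descriptions only. The summed hepatocyte markers moved the same way, at 113546 ± 14531 CPM in Tsc1/p62Δhep and 57667 ± 21807 CPM in Tsc1Δhep, and at 89031 ± 19433 CPM in p62Δhep and 109984 ± 15691 CPM in p62F/F (SD, n = 3 each). Their part in the difference was not tested.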

How the results depend on the processing

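In Tsc1/p62Δhep against Tsc1Δhep the genes called higher and lower numbered 1167 and 1886, and the 9 genes 7 higher. DESeq2 called 1775 higher, library totals 576 higher and 3337 lower, 1 fit of all libraries 2249 and 2952, and the removal of the GC and length trend 1914 higher. Of the 74 amino acid genes, 29 and 2, library totals left 18 and 4, all libraries in 1 fit gave 4 lower, and the fit without Tsc1Δhep library 3 and Tsc1/p62Δhep library 1 gave 1 lower. Leaving out 1 library gave 351 to 2686 higher, 760 to 3139 lower, 4 to 6 of the 9, and 12 to 33 higher and 0 to 3 lower of the 74. In p62Δhep against p62F/F, with 0 and 2, DESeq2 called 33 and 138, limma with and without trend removal 4 lower, all libraries in 1 fit 1 lower, and leaving out 1 library 0 to 1 higher and 1 to 48 lower, with 48 without p62F/F library 1. Fah turned to -0.0038 with library totals there, and leaving out 1 library gave Tat -0.49 to 0.16, Hgd -0.32 to 0.0316, Gstz1 -0.24 to 0.0162, Fah -0.0485 to 0.088 and Sds -0.52 to 0.16. For the difference between backgrounds, 894 and 1233 became 419 and 2391 with library totals, 1943 and 1961 without those libraries, 1425 higher with trend removal, and 465 to 2401 and 676 to 2551 with 1 library left out. Of the 74, 23 and 1 became 14 and 3 with library totals and 13 to 30 and 0 to 2 with 1 library left out, and 2 were lower with DESeq2, limma, trend removal and without those libraries. Of the 9, 6 became 4 to 6. Same-numbered libraries did not deviate together (correlations -0.53 to 0.03). No label states a pairing, and with 3 libraries per group this check cannot exclude one. The replicate block gave 649 and 1198 genes, 5 of the 9 and 19 of the 74 higher in Tsc1/p62Δhep against Tsc1Δhep, 1 lower gene in p62Δhep against p62F/F, and 2 of the 74 lower for the difference. The cause of these shifts was not tested.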
